A study of Homo sapiens with 9 samples.

Results

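ADIRF, RGCC, ZSCAN18 and NNMT are 4 genes that were abundant in drug-sensitive MDA-MB-231 cells and strongly lowered in taxane-resistant lines derived from them. They were chosen from these same arrays for that pattern, so their differences between resistant and sensitive cells are given as a description with no test. The array carried 6 probe sets for them, 1 each for ADIRF and RGCC and 2 each for ZSCAN18 and NNMT, among 22215 human probe sets and 11963 measured genes.

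MDA-MB-231 is a human breast cancer line of basal-like, mesenchymal character. RNA came from 3 passages of each of 3 groups, and all 3 groups were grown with 1 µM verapamil, an inhibitor of the P-glycoprotein drug pump. The sensitive group received no taxane, the docetaxel-resistant line grew in 2 nM docetaxel and the paclitaxel-resistant line in 7 nM paclitaxel, both of them drugs that stabilise microtubules. Each resistance is represented by 1 line, so the line, its history of selection and the drug in its medium cannot be told apart, and the doses of the drugs differ. Replicates are passages, and every p-value measures the spread between passages.

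The genes have unrelated known roles. ADIRF encodes a small nuclear protein found in fat tissue that promotes the expression of adipogenic transcription factors. RGCC encodes a protein induced by complement activation that binds the cell cycle kinase CDK1. ZSCAN18 encodes a zinc finger protein with a SCAN domain, a module through which such proteins pair, and its promoter is known to be methylated in several tumour types. NNMT is the enzyme that methylates nicotinamide with the methyl group of S-adenosylmethionine, and so draws on both NAD precursors and the methionine cycle; its gene responds to IL6 and STAT3 signalling.

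The promoters of the lowered genes are shown because CpG-rich start sites are the kind at which DNA methylation is usually studied; methylation was not measured here. The RefSeq table of GRCh38.p14 matched 3 of the 4 genes, with 4 start sites. Each line below gives the 250 bases upstream of a start site, 5′ to 3′ on the strand of the gene, with every CG in capitals. ADIRF lies on the plus strand (chr10:86968232-86968481) and so does RGCC (chr13:41457300-41457549). The ZSCAN18 start sites lie on the minus strand (chr19:58118405-58118654 for start site 1 and chr19:58098232-58098481 for start site 2).
ADIRF: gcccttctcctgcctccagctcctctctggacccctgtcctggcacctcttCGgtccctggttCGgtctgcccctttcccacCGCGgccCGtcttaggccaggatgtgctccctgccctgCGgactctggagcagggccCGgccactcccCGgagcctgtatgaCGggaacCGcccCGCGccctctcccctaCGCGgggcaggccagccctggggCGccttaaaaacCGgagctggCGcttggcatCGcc
RGCC: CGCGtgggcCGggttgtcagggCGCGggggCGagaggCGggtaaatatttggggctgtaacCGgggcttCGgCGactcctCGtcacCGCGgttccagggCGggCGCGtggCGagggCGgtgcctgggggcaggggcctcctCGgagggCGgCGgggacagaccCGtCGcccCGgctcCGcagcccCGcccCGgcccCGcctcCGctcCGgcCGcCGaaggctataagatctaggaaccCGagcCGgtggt
ZSCAN18 start site 1: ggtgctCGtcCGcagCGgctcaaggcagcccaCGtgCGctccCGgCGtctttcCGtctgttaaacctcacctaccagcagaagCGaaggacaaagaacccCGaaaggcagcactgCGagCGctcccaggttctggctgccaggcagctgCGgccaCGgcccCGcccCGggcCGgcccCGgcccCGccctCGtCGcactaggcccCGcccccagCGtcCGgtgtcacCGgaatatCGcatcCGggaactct
ZSCAN18 start site 2: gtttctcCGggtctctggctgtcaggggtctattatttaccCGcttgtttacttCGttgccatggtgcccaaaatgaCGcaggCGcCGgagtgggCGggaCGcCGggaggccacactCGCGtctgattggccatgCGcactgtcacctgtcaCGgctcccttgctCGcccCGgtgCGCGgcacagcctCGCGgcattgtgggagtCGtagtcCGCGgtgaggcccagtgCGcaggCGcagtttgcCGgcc

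RGCC had the densest CpG content of the 4 windows, with 34 CG pairs and 75.2% G and C, at the 93.7 percentile of the 35116 promoters in the table. ZSCAN18 had 27 CG pairs at start site 1 and 25 at start site 2, and ADIRF had 18. The median over all promoters was 11 with quartiles of 3 and 23, so the ADIRF window lay between the median and the upper quartile and the other windows lay above the upper quartile. The ratio of observed to expected CG pairs was 0.975 for RGCC, 0.919 and 0.942 for the ZSCAN18 start sites and 0.607 for ADIRF.

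Of 5 motifs searched on both strands, GGGCGG, the GC box, occurred in all 4 windows, with 4 matches in RGCC, 3 at ZSCAN18 start site 1 and 1 in each of the others. It was present in 42.6% of all promoters of the table. CCAAT occurred 1 time, at ZSCAN18 start site 2, against 32.0% of all promoters with a match. TATAAA (10.7% of all promoters), TGANTCA, the AP-1 motif (6.57%), and TTCNNNGAA, the STAT motif (6.57%), had no match in these windows. A match describes letters and not a bound site, and no match says only that those letters are not in the window.

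Median intensity per array ran from 33.7 to 43.9, and 24.0% to 27.0% of probe sets lay under 16. Correlations of log2 values between arrays were 0.967 to 0.992 within groups and 0.889 to 0.954 between resistant and sensitive arrays. The 3′ minus 5′ difference of GAPDH, a sign of RNA integrity, was 0.01 to 0.04 (log2) in sensitive arrays, 0.01 to 0.13 in docetaxel-resistant ones and 0.09 to 0.20 in paclitaxel-resistant ones. That of actin was -0.26 to -0.02, -0.15 to -0.11 and -0.13 to 0.17 in the same groups, with paclitaxel-resistant replicate 1 at 0.17. The part of RNA integrity in the results was not tested. The bioC spike-in control read 221 on sensitive replicate 3 and 41.5 to 72 on the other arrays; that array was also the highest for RGCC and for the brighter ZSCAN18 probe set. Markers of the labelled line were present: VIM, CD44, KRT7, KRT8, KRT18, EGFR, CAV1 and MSN lay on average above the array median of human probe sets in every group, as did 4 or 5 of 8 luminal markers. Of the luminal markers KRT19 read 1428 to 1618 as group means, ERBB3 71.6 to 102, GATA3 79.1 to 85.1 and CDH1 61 to 83.3, the oestrogen receptor ESR1 39.7 to 42.2 (the 51.2 percentile), FOXA1 5.74 to 28.2, EPCAM 14.3 to 22.1 and the progesterone receptor PGR 7.84 to 9.6. No detection calls were used, so the background of each probe set was not measured; probe sets against a bacterial tryptophan gene, which human RNA should not bind, read 13.9 to 77.4, 13.4 to 23.2 and 2.08 to 6.43 over the 9 arrays. Levels are not compared between probe sets, which differ in their own response.

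ADIRF was among the brightest probe sets of sensitive cells and read near the array median in both resistant lines. Its deposited intensity in the 3 sensitive passages was 6798, 5087 and 5341. In the docetaxel-resistant line it was 55.8, 43.3 and 46.7, and in the paclitaxel-resistant line 48.6, 56.0 and 45.5. No overlap between groups was seen, as the lowest sensitive array was 91.2 times the highest docetaxel-resistant array and 90.8 times the highest paclitaxel-resistant array. Means were 5742 ± 923, 48.6 ± 6.48 and 50 ± 5.42 (SD, n = 3 each), so that 0.846% and 0.871% of the sensitive mean was left. On each array the sensitive values stood at the 99.3 to 99.5 percentile of human probe sets, and the resistant ones at the 51.2 to 60.1 percentile. The resistant values lie within the 13.9 to 77.4 range of the highest bacterial control, and how much of them is background was not measured.

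RGCC was lowered in both lines as well. Sensitive passages read 1098, 863 and 1301. Docetaxel-resistant passages read 17.8, 16.9 and 16.3, and paclitaxel-resistant ones 18.0, 24.1 and 20. Every resistant array lay below every sensitive one, by at least 48.5 times and 35.8 times in the respective lines. The means were 1087 ± 219, 17 ± 0.747 and 20.7 ± 3.09 (SD, n = 3), or 1.56% and 1.90% of the sensitive mean. Its rank on the arrays moved from the 95.8 to 96.9 percentile in sensitive cells to the 24.4 to 37.4 percentile in the resistant ones. The resistant RGCC values also lie within the 13.9 to 77.4 range of the highest bacterial control, and their background part was not measured.

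ZSCAN18 was read by a pair of probe sets that were both lowered in both lines. The brighter, 217593_at, read 3757, 2777 and 6479 in sensitive passages, 175.5, 163 and 156 in docetaxel-resistant passages and 154, 195 and 266 in paclitaxel-resistant passages. Sensitive replicate 3 was 2.33 times sensitive replicate 2, the widest spread of any of the 6 probe sets within sensitive cells. The means were 4338 ± 1918, 165 ± 10.1 and 205 ± 56.9 (SD, n = 3), leaving 3.8% and 4.72% at the 75 to 85.7 percentile of each array. The other probe set, 218312_s_at, read 505.5, 409 and 493 in sensitive passages, 1.32, 1.89 and 0.95 in docetaxel-resistant passages and 3.23, 0.01 and 2.05 in paclitaxel-resistant passages. That probe set was thus at the bottom of the resistant arrays, at the 0.781 to 3.55 percentile. Its means of 469 ± 52.5, 1.39 ± 0.474 and 1.76 ± 1.63 (SD, n = 3) left 0.296% and 0.376%. Both probe sets separated the groups completely, while the percentages left differed by over 10 times between them, and values near 0 carry no order.

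NNMT was lowered in both lines, and its values in the paclitaxel-resistant line were below those of the docetaxel-resistant line on every array. By a single probe set per gene, 10.4% of all genes also had the paclitaxel-resistant arrays below the docetaxel-resistant ones. Probe set 202237_at read 601, 764 and 660 in sensitive passages, 35.1, 47.1 and 40.1 in docetaxel-resistant passages and 30.1, 29.6 and 12.5 in paclitaxel-resistant passages. Its means were 675 ± 82.5, 40.7 ± 6.06 and 24.1 ± 10 (SD, n = 3), or 6.04% and 3.57% of the sensitive mean. The second probe set, 202238_s_at, showed the same order of groups. It read 332, 427 and 327 in sensitive passages, 17.3, 21.5 and 16.8 in docetaxel-resistant passages and 6.49, 6.45 and 4.95 in paclitaxel-resistant passages. The means were 362 ± 56.3, 18.5 ± 2.59 and 5.96 ± 0.878 (SD, n = 3), leaving 5.12% and 1.65%. The resistant values of both probe sets lie within the 2.08 to 77.4 span of the bacterial controls. How much of these values, or of their order between the lines, is background was not measured.

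**Figure D1:**
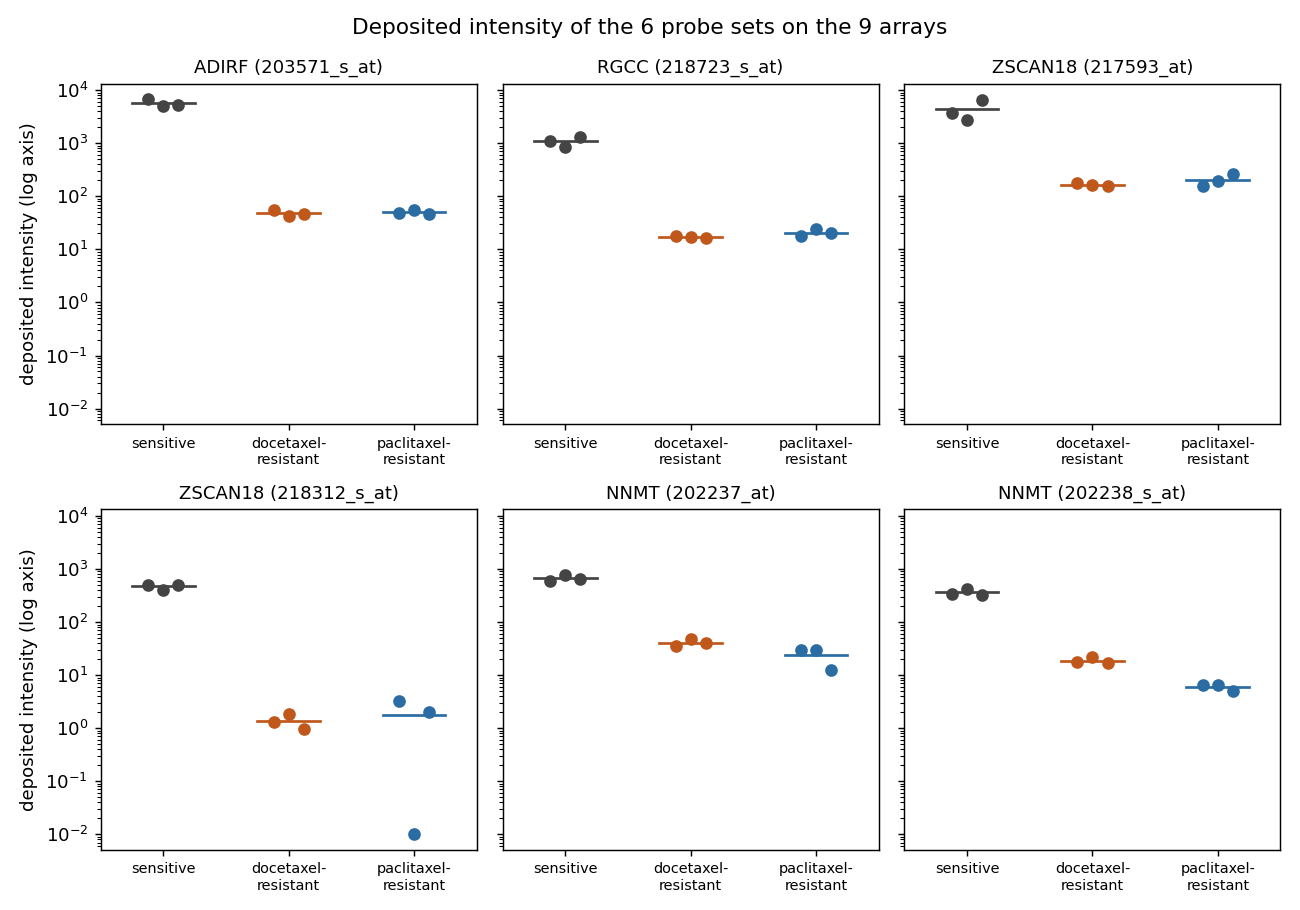
Deposited intensity on a log axis for the 6 probe sets, 1 point per array and a bar at each group mean (n = 3). All resistant arrays sit below all sensitive arrays in every panel, and the NNMT panels show the paclitaxel-resistant arrays below the docetaxel-resistant ones. By a single probe set per gene, 10.4% of all genes showed this order of the resistant lines.

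**Figure D2:**
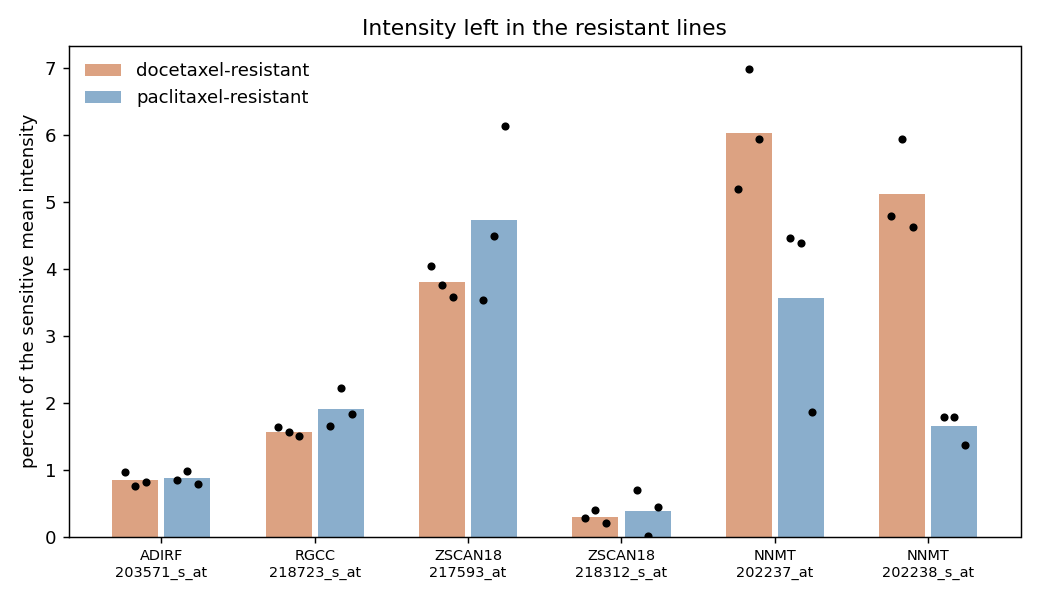
Intensity in each resistant line as a percent of the sensitive mean, with bars at the group mean and points for the 3 arrays. ADIRF and ZSCAN18 218312_s_at are under 1%, and NNMT 202237_at is highest in the docetaxel-resistant line at 6.04%.

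All 6 probe sets had every resistant array below every sensitive array, in both lines. Over all genes, each by its probe set with the highest mean, that was so for 20.5% in the docetaxel-resistant line and 18.5% in the paclitaxel-resistant line, and 10.2% and 10.7% of genes were called lower at an adjusted p under 0.05; the choice of the 4 genes fixed their side of these shares. On the log2(intensity + 16) scale after quantile normalization, the difference from sensitive cells was -6.50 in the docetaxel-resistant line and -6.41 in the paclitaxel-resistant line for ADIRF (standard error 0.16). The differences were -5.09 and -4.91 for RGCC (0.15), -4.53 and -4.15 for ZSCAN18 (0.28), and -3.69 and -4.17 for NNMT (0.21). The size of these differences depends on the offset where the resistant value is low, and values with other offsets are given further below. Without sensitive replicate 3 the ZSCAN18 differences were -4.22 and -3.84.

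With the offset of 16, and all genes ordered by the size of the fall, ADIRF stood at rank 3 in both lines, after CD74 and MGMT. RGCC stood at ranks 6 and 7, ZSCAN18 at 10 and 11 and NNMT at 17 and 10. In the docetaxel-resistant line ZSCAN18 came between FSCN1 (-4.65) and BST2 (-4.51), and NNMT between CST6 (-3.70) and HLA-DRB6 (-3.69). The ranks depend on the offset, since many of these genes read near 0 in resistant cells: with an offset of 1 they were 4 and 5 for ADIRF, 11 and 10 for RGCC, 22 and 22 for ZSCAN18 and 27 and 14 for NNMT. With an offset of 64 they were 2 and 2, 8 and 7, 6 and 6, and 14 and 10. The comparisons with sensitive cells share the sensitive arrays, so likeness of the ranks between lines is no separate result.

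The resistant lines were then compared with each other, a contrast that the choice of the genes did not use but that rests on the same resistant arrays. None of the 4 genes differed at an adjusted p under 0.05 in limma, and 1, NNMT, had an unadjusted p under 0.05. Over all genes, 0.986% were called lower in the paclitaxel-resistant line and 0.978% higher. NNMT was lower there by a log2 difference of -0.47 (95% interval -0.94 to -0.01, adjusted p = 0.375, unadjusted p = 0.0478). Its 3 paclitaxel-resistant arrays lay below its 3 docetaxel-resistant arrays in both probe sets, which 4.51% of the 2551 genes with 2 probe sets also showed; by a single probe set per gene, 10.4% of all genes did. In the fit over single probe sets, where 1.60% were called, NNMT 202238_s_at differed by -0.61 with a standard error of 0.17 (adjusted p = 0.117) and ZSCAN18 218312_s_at by 0.04 with a standard error of 0.12 (adjusted p = 0.960).

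Intervals of the other genes span 0. ADIRF differed by 0.10 (95% interval -0.25 to 0.45, adjusted p = 0.896), RGCC by 0.18 (-0.15 to 0.50, adjusted p = 0.720) and ZSCAN18 by 0.38 (-0.23 to 0.99, adjusted p = 0.662). The ZSCAN18 interval thus leaves room for nearly 1 unit of log2 between lines, and a p that misses the threshold does not show that the lines are alike.

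**Figure D3:**
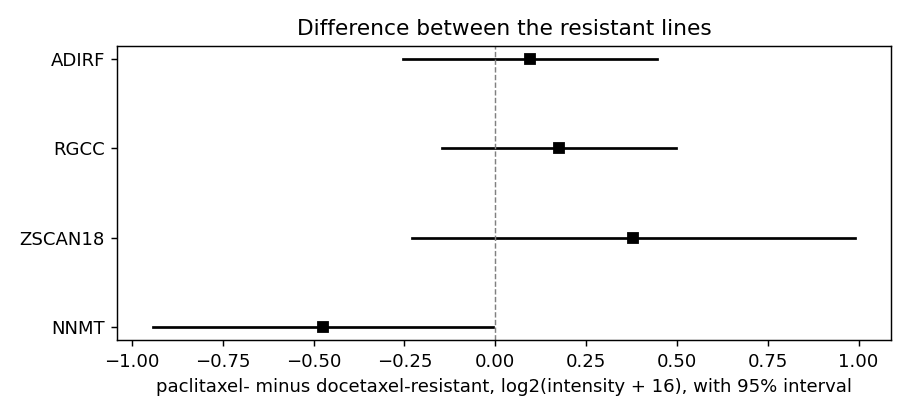
Difference between the paclitaxel- and docetaxel-resistant lines in log2(intensity + 16) for the 4 genes, with 95% intervals from the limma fit over all 9 arrays. The intervals of ADIRF, RGCC and ZSCAN18 span 0, and that of NNMT runs from -0.94 to -0.01.

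The 4 genes were set against each other by the root mean square difference of their log2 profiles over the 9 arrays, after each gene's sensitive mean was subtracted. RGCC and ZSCAN18 were nearest at 0.60, ZSCAN18 and NNMT followed at 0.71, and ADIRF and NNMT were farthest apart at 2.10. This distance follows mostly the size of the fall. The genes nearest to each of them, among genes above the median level in sensitive cells, were picked for likeness and carry no test. They depend on the offset: of the 5 named for each gene at an offset of 16, an offset of 1 kept 4 for ADIRF, 1 for RGCC, 2 for ZSCAN18 and 2 for NNMT, and an offset of 64 kept 4, 3, 2 and 1.

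ADIRF was nearest to MGMT, a DNA repair methyltransferase, at a distance of 0.25, with differences of -6.60 and -6.59 in the docetaxel- and paclitaxel-resistant lines. SPANXB1, a cancer-testis antigen, followed at 0.34, then CD74, the invariant chain of MHC class II, at 0.81, HLA-DRB1 at 1.04 and RGCC at 1.20. RGCC was nearest to the class II chain HLA-DRA (0.26; differences of -4.95 and -4.94) and to HLA-DRB1 (0.37), then to the transporter SLCO4A1 (0.57), ZSCAN18 (0.60) and the microfibril protein MFAP2 (0.79). HLA-DRA read 1.46 in the docetaxel-resistant line, and with an offset of 1 its differences were -8.22 and -8.04 and its distance from RGCC 2.07.

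ZSCAN18 was nearest to MFAP2 (0.50), BST2, an interferon-induced antiviral membrane protein (0.55), SLCO4A1 (0.55), the protease inhibitor CST6 (0.60) and RGCC (0.60). NNMT was nearest to the cytokine IL6 (0.35), with differences of -3.79 and -3.77, to HLA-DRB6 (0.35), MFAP2 (0.38), CST6 (0.39) and the Fc receptor FCGRT (0.42). HLA-DRB6 and HLA-DRB1 have near-identical copies, so their probe sets may read more than 1 gene; without probe sets of the _x_at and _s_at kinds HLA-DRB6 read -0.08 in the docetaxel-resistant line.

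Genes beside the 4 on their chromosomes had log2 differences from -0.77 to 1.30, while the 4 themselves had been chosen for large falls. The 5 nearest measured genes on each side were taken from the RefSeq gene order, 10 for each gene. Some neighbours read so low in sensitive cells that a fall of that size could not show, such as ZNF135 (mean 2.38), NAA16 (3.53) and NXPE4 (9.22). Others, such as GLUD1 (749) and REXO2 (868), had room to fall. Of these 40, 3 were lower and 3 higher in the docetaxel-resistant line and 2 lower and 5 higher in the paclitaxel-resistant line; the shares over all genes were 10.2% and 10.8%, and 10.7% and 10.8%. Beside ADIRF on chromosome 10, 0 of 10 were lower and 2 higher in the docetaxel-resistant line, and 0 lower and 1 higher in the paclitaxel-resistant line, with differences from -0.52 to 1.30 over both lines. Its nearest neighbour SNCG, gamma-synuclein, rose by 1.30 ± 0.27 (SE, adjusted p = 0.00502) and 1.23 ± 0.27 (adjusted p = 0.00643), from a mean intensity of 32.6 to 108.8 and 93.4. With an offset of 64 the SNCG differences were 0.76 and 0.72, and with its probe sets averaged 0.58 and 0.55. GLUD1, the glutamate dehydrogenase gene on the other side, had differences of -0.23 and -0.19. PAPSS2, which makes the sulphate donor of the cell, rose in the docetaxel-resistant line (0.60 ± 0.15, adjusted p = 0.0171) with a difference of -0.17 in the other. The PAPSS2 call was lost when its probe sets were averaged (0.29) and without sensitive replicate 2 or docetaxel-resistant replicate 1 or 3, with adjusted p up to 0.109 over these.

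Beside RGCC on chromosome 13, 1 of 10 genes was lower in each line, and 1 and 3 were higher. OR7E37P, an olfactory receptor pseudogene with many similar copies, fell by 0.77 and 0.75 (adjusted p = 0.00339 and 0.00365). VWA8, on the other side, rose by 0.85 ± 0.20 and 1.07 ± 0.20 (adjusted p = 0.00942 and 0.00242), which became 0.47 and 0.60 with an offset of 64 and 0.46 and 0.43 with its probe sets averaged. DGKH, a diacylglycerol kinase, rose in the paclitaxel-resistant line by 0.77 ± 0.17 (adjusted p = 0.00855; 0.45 with an offset of 64), as did NAA16 by 0.64 ± 0.20 (adjusted p = 0.0382). Mean intensities in sensitive, docetaxel- and paclitaxel-resistant arrays were 25.3, 70.0 and 74.7 for VWA8 and 35.7, 57.4 and 74.2 for DGKH. For NAA16 they were 3.53, 12.7 and 14.7, and the means of all of these genes lie within the span of the bacterial controls. The NAA16 difference was 1.80 with an offset of 1, 0.22 with 64 and 0.31 with the mean of probe sets. Its call was lost in 10 alternatives: the last pair, no normalization, median scaling, the replicate block, any 1 sensitive array left out, and paclitaxel-resistant replicate 1 or 2 left out (adjusted p up to 0.247).

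Beside ZSCAN18 on chromosome 19 lie other zinc finger genes, of which 2 of 10 were lower and 0 higher in the docetaxel-resistant line, and 1 lower and 1 higher in the paclitaxel-resistant line. ZNF329 fell by 0.62 ± 0.14 and 0.65 ± 0.14 (adjusted p = 0.0106 and 0.00734), from a mean intensity of 16 to 5.27 and 4.33, all within the range of the bacterial controls. The ZNF329 differences were -1.54 and -1.64 with an offset of 1 and -0.22 and -0.23 with 64. ZNF135, on the other side, had differences of 0.02 and 0.16. ZNF324B fell in the docetaxel-resistant line by 0.61 ± 0.18 (adjusted p = 0.0288; -0.39 with an offset of 64) and ZNF544 rose in the paclitaxel-resistant line by 0.42 ± 0.13 (adjusted p = 0.0457). Leaving out any docetaxel-resistant array, or sensitive replicate 2, ended the ZNF324B call (adjusted p up to 0.115), as did no normalization and a fit of 2 groups only. Leaving out any 1 array other than sensitive replicate 1 ended the ZNF544 call (up to 0.140), as did 7 other alternatives.

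Around NNMT on chromosome 11, 0 of 10 genes were called in limma in either line, with 1 and 2 at an unadjusted p under 0.05, and differences ran from -0.36 to 0.39. ZBTB16 on one side had differences of -0.19 and -0.29 and C11orf71 on the other 0.01 and -0.12. Between the lines, PAPSS2 was the single neighbour called of the 40 compared.

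**Figure D4:**
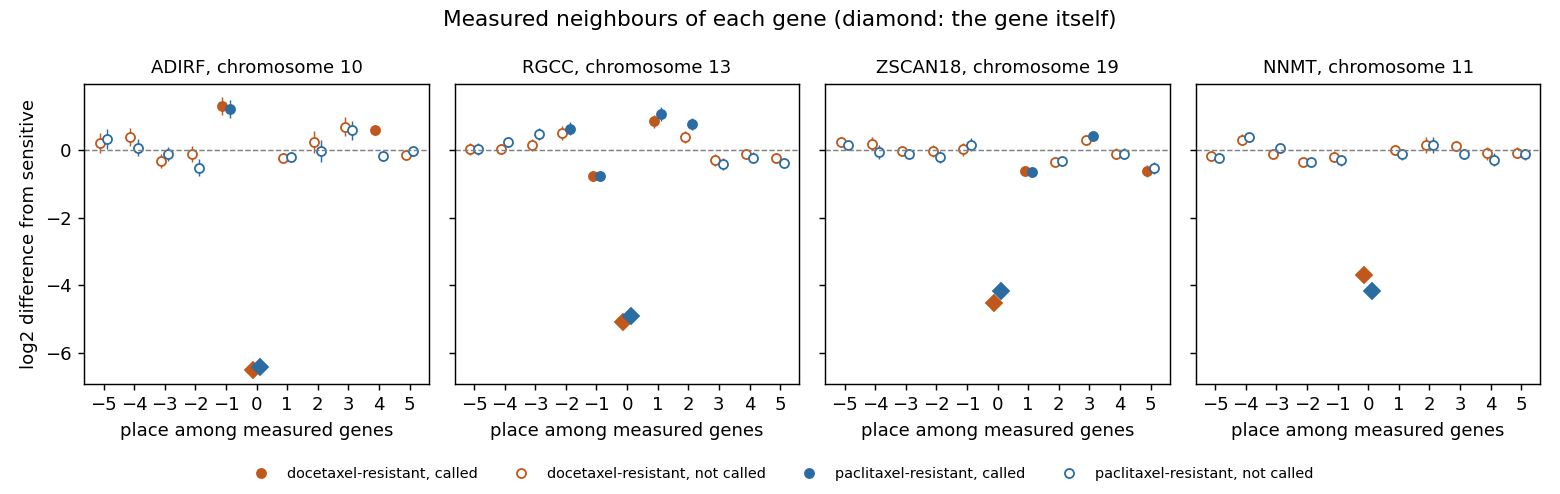
Log2 difference from sensitive cells, with standard errors, for the 5 measured genes on each side of each of the 4 genes, by place in chromosomal order. Diamonds mark the gene itself, filled circles a neighbour called at an adjusted p under 0.05, and all 40 neighbours lie between -0.77 and 1.30 while the diamonds lie at -3.69 or lower. The 4 genes were chosen for their fall, and some neighbours read too low in sensitive cells for such a fall to show.

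The pathways around the 4 genes were followed through 7 lists, with 196 of 237 listed genes measured. The lists were chosen by function, but with earlier results of these data known. Up to 4 called genes of each list are named for the smallest adjusted p, so their p-values are selected. In the docetaxel-resistant line 22 of the 196 rose and 23 fell (11.2% and 11.7%), against 10.8% and 10.2% of all genes. In the paclitaxel-resistant line 23 rose and 21 fell (11.7% and 10.7%), against 10.8% and 10.7%. These shares are near the background and are no result about the lists. Without docetaxel-resistant replicate 3, 15 fell in that line; without sensitive replicate 3 or paclitaxel-resistant replicate 2, 12 and 13 fell in the paclitaxel-resistant line.

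Around NNMT, 7 of 31 genes of nicotinamide and NAD metabolism rose and 2 fell in the docetaxel-resistant line, with a median of -0.01 against -0.05 over all genes, and 8 rose and 2 fell in the paclitaxel-resistant line (0.05 against -0.02). Over all genes 10.8% rose and 10.2% fell, and 10.8% rose and 10.7% fell. NT5E, the ectoenzyme CD73 that dephosphorylates extracellular nucleotides, rose by 1.71 ± 0.14 and 1.58 ± 0.14 (adjusted p = 1.33e-05 and 2.24e-05), from a mean of 390 to 1375 and 1222. PARP1, the main NAD-consuming DNA damage sensor, rose by 0.83 ± 0.13 and 0.58 ± 0.13 (adjusted p = 0.000829 and 0.00641). Tankyrase, TNKS, rose by 0.84 and 1.12, a call that ended when its probe sets were averaged (0.31 in both, adjusted p = 0.0524 and 0.0539). AOX1, aldehyde oxidase, which oxidises the product of NNMT, moved in opposite directions. It rose in the docetaxel-resistant line by 1.01 ± 0.25 (adjusted p = 0.0153; 0.0634 without docetaxel-resistant replicate 3) and fell in the paclitaxel-resistant line by 1.18 ± 0.25 (adjusted p = 0.00642), with means of 65.2, 155 and 18.6; with an offset of 64 the paclitaxel-resistant difference was -0.63. NAMPT, which recycles nicotinamide to NAD, had differences of -0.36 and 0.37 and was not called. Of 20 alternatives, 1 called NAMPT in the docetaxel-resistant line (adjusted p = 0.0376) and 1 between the lines (adjusted p = 0.0378).

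On the methyl donor side, 5 of 30 genes of the methionine cycle and small-molecule methyltransferases rose and 1 fell in the docetaxel-resistant line (median 0.06), and 5 rose and 2 fell in the paclitaxel-resistant line (median 0.04). The shares over all genes were 10.8% up and 10.2% down, and 10.8% up and 10.7% down, with medians of -0.05 and -0.02. Spermine synthase, SMS, rose by 1.54 ± 0.15 and 0.79 ± 0.15 (adjusted p = 5.48e-05 and 0.00365). MTHFD2, a mitochondrial folate enzyme, rose by 1.14 ± 0.24 and 1.29 ± 0.24 (adjusted p = 0.00623 and 0.00291). Methionine synthase, MTR, rose by 1.05 and 0.84 (adjusted p = 0.0029 and 0.00947, and 0.56 and 0.43 with an offset of 64), and AHCYL1 by 0.85 and 0.79 (adjusted p = 0.000785 and 0.00112). The MTR means of 20.7 in sensitive, 69.5 in docetaxel-resistant and 51.8 in paclitaxel-resistant arrays lie within the range of the bacterial controls.

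Of 19 measured genes of IL6 and STAT3 signalling, 3 rose and 3 fell in the docetaxel-resistant line (median 0.03), and 2 rose and 2 fell in the paclitaxel-resistant line (median 0.06). Of all genes, 10.8% rose and 10.2% fell (median -0.05), and 10.8% rose and 10.7% fell (median -0.02). IL6 fell by 3.79 ± 0.29 and 3.77 ± 0.29 (adjusted p = 7.45e-06 and 9.56e-06), from a mean of 401 to 14.0 and 14.2. CEBPD, a transcription factor downstream of STAT3, fell by 2.36 ± 0.25 and 2.77 ± 0.25 (adjusted p = 7.43e-05 and 2.07e-05); without probe sets of the _x_at and _s_at kinds its differences were -0.31 and -0.35, not called (adjusted p = 0.271 and 0.211), and with the mean of its probe sets -1.33 and -1.56. LIF, a cytokine of the IL6 family, rose by 0.68 ± 0.18 and 1.25 ± 0.18 (adjusted p = 0.0215 and 0.000693). The LIF call in the docetaxel-resistant line was lost without sensitive replicate 1 or 3 or docetaxel-resistant replicate 1 or 2 (adjusted p up to 0.0800). JAK1, a non-receptor tyrosine kinase, rose by 0.74 and 0.84 (adjusted p = 0.00348 and 0.00159), and STAT3 itself had differences of 0.20 and 0.08 and was not called.

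Around ADIRF, genes of adipocyte differentiation and lipid storage had 1 of 35 up and 9 down in the docetaxel-resistant line and 3 up and 8 down in the paclitaxel-resistant line. Over all genes 10.8% were up and 10.2% down, and 10.8% up and 10.7% down. The medians were -0.27 and -0.18, against -0.05 and -0.02 over all genes. CFD, adipsin, had differences of -2.49 ± 0.16 and -2.25 ± 0.16 (adjusted p = 1.91e-06 and 6.09e-06), from a mean of 112 to 8.40 and 12.5; they were -1.35 and -1.27 with an offset of 64, and -3.76 with an offset of 1 in the docetaxel-resistant line. KLF4 fell by 1.16 and 1.14 (adjusted p = 0.000844 and 0.000934) and STAT5A by 0.71 and 0.96 (adjusted p = 0.00377 and 0.000577; -0.41 and -0.54 with an offset of 64), both transcription factors with roles in early adipogenesis. CEBPD, described above, is also in this list. PPARG, the master regulator of fat cells, had a difference of 0.31 in the docetaxel-resistant line, not called, and rose by 0.53 ± 0.16 in the paclitaxel-resistant line (adjusted p = 0.0381), a call lost without any 1 sensitive array, docetaxel-resistant replicate 1 or 2 or paclitaxel-resistant replicate 1 or 3 (up to 0.145). Of 7 fat cell markers 3 lay on average above the array median of human probe sets in sensitive cells and 2 in each resistant line, with CIDEC (92.1 in sensitive cells) and ADIPOQ (65.4) the brightest and FABP4 (13.8) the lowest there. Their summed intensity was 249 to 314 in sensitive arrays, 195 to 244 in docetaxel-resistant ones and 193 to 223 in paclitaxel-resistant ones, with CIDEC called lower in both lines and LIPE in the paclitaxel-resistant line. The CIDEC call in the paclitaxel-resistant line was lost without sensitive replicate 2 or 3 or paclitaxel-resistant replicate 1 or 2 (adjusted p up to 0.101), and the LIPE call when its probe sets were averaged (0.114). The part of these markers in the ADIRF values was not tested.

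Around RGCC, 2 of 25 genes of the CDK1 complex and G2/M regulation rose and 3 fell in the docetaxel-resistant line (median -0.14), and 2 rose and 4 fell in the paclitaxel-resistant line (median -0.17). The background over all genes was 10.8% up and 10.2% down (median -0.05), and 10.8% up and 10.7% down (median -0.02). RBL2, the p130 pocket protein, rose by 2.28 ± 0.21 and 2.20 ± 0.21 (adjusted p = 2.59e-05 and 2.9e-05), from a mean of 37.1 to 263 and 234. Cyclin B2, CCNB2, rose by 0.80 and 0.60 (adjusted p = 0.00198 and 0.00969). GADD45A, a stress-induced inhibitor of CDK1, fell by 0.85 and 0.54 (adjusted p = 0.00297 and 0.0305), and LIN37 by 0.73 and 0.53 (adjusted p = 0.00434 and 0.0228). In the paclitaxel-resistant line the GADD45A call was lost without sensitive or paclitaxel-resistant replicate 3 (adjusted p up to 0.117 over all alternatives), and the LIN37 call without sensitive replicate 2 or 3 or any paclitaxel-resistant array (up to 0.0777). CDK1 itself had differences of -0.17 and -0.43 with a standard error of 0.50 and was not called.

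Complement, the other setting in which RGCC is known, had 2 of 29 genes higher and 5 lower in the docetaxel-resistant line (median -0.12) and 2 higher and 4 lower in the paclitaxel-resistant line (median -0.05). All genes had 10.8% higher and 10.2% lower (median -0.05), and 10.8% higher and 10.7% lower (median -0.02). CFP, properdin, had differences of -3.10 ± 0.19 and -2.79 ± 0.19 (adjusted p = 1.05e-06 and 3.73e-06), from a mean of 114 to 0.0167 and 4.31. As these resistant values are near 0, the offset sets the size: CFP differed by -6.90 and -5.27 with an offset of 1 and by -1.53 and -1.44 with 64. CFD, an enzyme of the same alternative pathway as well as the fat cell product above, fell with the values given there. C3 fell by 0.74 and 0.94 (adjusted p = 0.0143 and 0.00367; -1.15 and -1.53 with an offset of 1, -0.36 and -0.44 with 64), and its call in the docetaxel-resistant line was lost without docetaxel-resistant replicate 2 or 3 (adjusted p up to 0.0601). CD55, a membrane inhibitor of complement, rose by 1.46 ± 0.17 and 1.57 ± 0.17 (adjusted p = 0.000156 and 8.46e-05).

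Around ZSCAN18, 29 of 50 listed genes with a SCAN domain were measured, of which 2 rose and 2 fell in the docetaxel-resistant line (median -0.19), and 1 rose and 1 fell in the paclitaxel-resistant line (median -0.08). Among all genes 10.8% rose and 10.2% fell (median -0.05), and 10.8% rose and 10.7% fell (median -0.02). ZKSCAN1 rose by 0.77 and 1.02 (adjusted p = 0.00343 and 0.000635; 1.20 and 1.53 with an offset of 1, 0.37 and 0.50 with 64), and ZNF232 fell by 1.05 and 0.63 (adjusted p = 0.000971 and 0.0158). The ZNF232 call in the paclitaxel-resistant line was lost without sensitive replicate 3 or paclitaxel-resistant replicate 2 (adjusted p up to 0.0991). In the docetaxel-resistant line ZNF165 rose by 0.54 ± 0.16 (adjusted p = 0.0343; 2.14 with an offset of 1 and 0.17 with 64) and ZNF202 fell by 0.41 ± 0.13 (adjusted p = 0.0397; -0.22 with no normalization). Mean intensities in sensitive, docetaxel- and paclitaxel-resistant arrays were 16.8, 44.2 and 51.5 for ZKSCAN1 and 1.89, 10.5 and 6.43 for ZNF165. None of these means is above the range of the bacterial controls. The ZNF165 call was lost in 9 alternatives, among them those without sensitive replicate 1 or 3, docetaxel-resistant replicate 1 or 3 or paclitaxel-resistant replicate 3 (adjusted p up to 0.135). The ZNF202 call was lost in 13, among them those without sensitive replicate 1 or 2, any docetaxel-resistant array or paclitaxel-resistant replicate 3 (up to 0.325).

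Between the resistant lines 3 list genes were called, all of them lower in the paclitaxel-resistant line: AOX1, SMS and MTHFD1, an enzyme of folate metabolism (-0.69 ± 0.15, adjusted p = 0.0453), the last named after its value was seen. They were 1.53% of the measured list genes, against 0.986% of all genes called lower. The MTHFD1 call was lost in 12 alternatives, among them those without sensitive replicate 3 or any 1 resistant array (adjusted p up to 0.183).

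**Figure D5:**
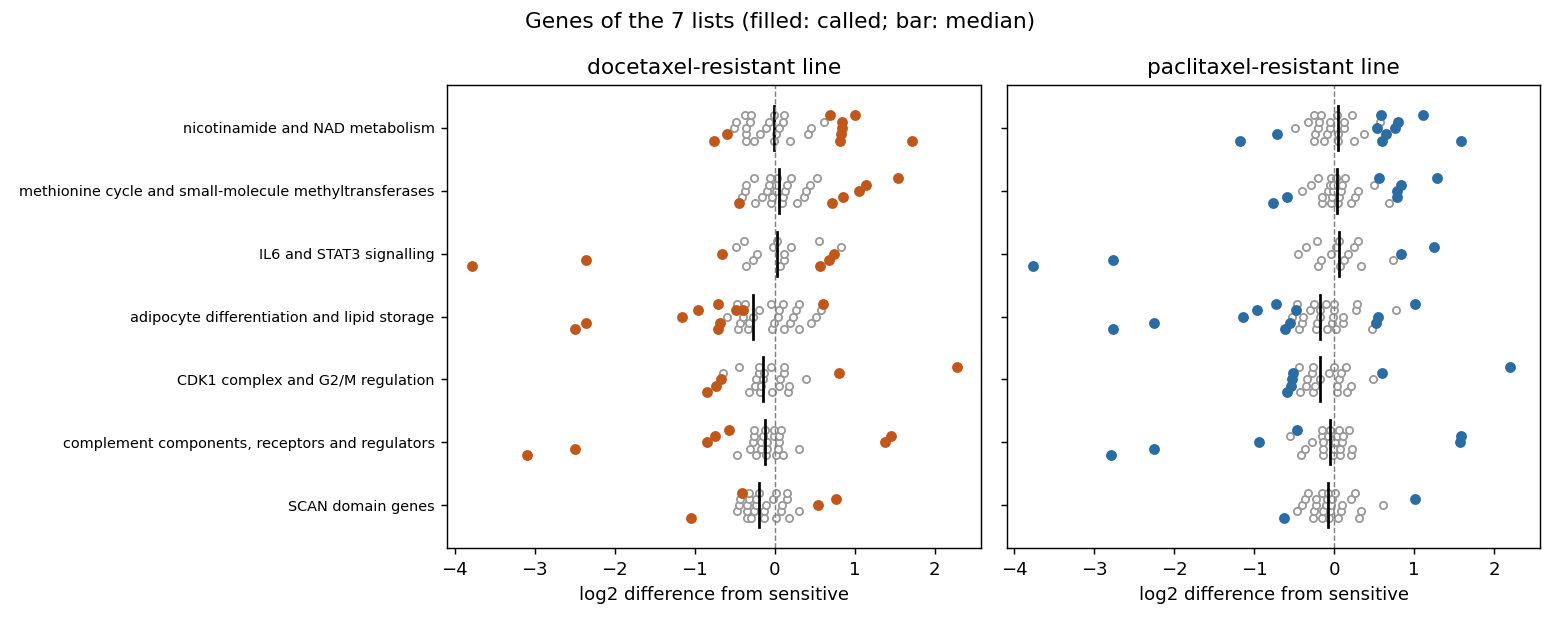
Log2 difference from sensitive cells for the measured genes of the 7 lists in each resistant line, with filled points for genes called at an adjusted p under 0.05, open points for the rest and a bar at each list's median. Medians lie between -0.27 and 0.06, and IL6, CFP, CFD and CEBPD form the far left.

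Markers of other cell types were read as well. In bulk RNA, fewer cells of a type and less RNA per cell cannot be told apart. Of 10 fibroblast markers, summing to 357 to 478 in sensitive, 453 to 510 in docetaxel-resistant and 417 to 497 in paclitaxel-resistant arrays, 5 lay on average above the array median of human probe sets in sensitive cells and 4 in each resistant line. COL1A1 had group means of 95.8 to 107, POSTN 72.9 to 78.5 and THY1 48.4 to 60, while LUM was lowest at 0.527 to 2.36 and PDGFRB rose (1.04 and 1.11; 0.63 and 0.69 with an offset of 64). Endothelial markers, 7 of 8 measured, summed to 169 to 237 in sensitive arrays against 120 to 130 and 113 to 127 in the resistant lines. PECAM1 fell by 1.02 in both (-0.66 and -0.65 with an offset of 64), CDH5 and VWF had group means between 2.57 and 5.40, and the part of these markers in the values of the 4 genes was not tested. Blood cell markers, 7 of 8 measured, summed to 145 to 162, 144 to 155 and 127 to 181. FCER1G had group means of 29.1 to 37.3, CD3E 26.4 to 30.8, CD79A 26 to 30.6, CD14 24.1 to 35.8, CD2 16.6 to 24, PTPRC 7.8 to 9.9 and LYZ 0 to 3.15, with LYZ at 0 in the docetaxel-resistant line.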

How the data were processed

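RNA (5 µg total) of 9 cultures was hybridised to Affymetrix human arrays. The deposited values are probe set intensities on a linear scale, summarised by the authors with Affymetrix Expression Console 1.1.2 and PLIER, per the submitters' processing notes; how background was corrected or arrays scaled is not given in the sources used here. Every value column, 9 in all, entered the fits. The table has 22283 probe sets, 68 of them controls. Among 22215 human probe sets a single gene was named by 19065, several genes by 1043 and no gene by 2107, and only the first kind stood for genes. Values became log2(intensity + 16). Array medians differed by 0.27, above the limit of 0.2, so arrays were quantile-normalized. The probe set with the highest mean stood for each of 11963 genes. limma 3.58.1 in R 4.3.3 fitted the 3 groups together, with Benjamini-Hochberg adjustment over all genes within a comparison and a threshold of 0.05; every adjusted p comes from it unless probe sets are named. The script was tested on simulated data, with genes lowered in the docetaxel-resistant arrays. It called 8 of 67 genes lowered by 0.5 log2, 50 of 67 lowered by 1 and 66 of 66 lowered by 2, so small differences were mostly missed. With 3 arrays a group, the number of arrays limits precision; the median standard error was 0.16.

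The members and the gene lists were chosen with earlier results of these data known. Named were the 4 genes, up to 4 called genes of each list with the smallest adjusted p, called and nearest neighbours, and the 5 genes most alike to each; other genes (NAMPT, STAT3, PPARG, CDK1, MTHFD1 and markers) were named beside them. Symbols and gene order come from the RefSeq gene table, promoter sequences from RefSeq. Alternatives covered the offset, normalization, probe set choice, filter, spread, replicate block and each array left out; ranks and likeness under other offsets were added after seeing the data.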

Additional observations from a re-analysis of the deposited data

Results flagged for a closer look

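Among the 196 list genes and the 40 neighbours, 4 were called by limma in the direct comparison of the paclitaxel- with the docetaxel-resistant line. ADIRF, RGCC, ZSCAN18 and NNMT were not called there. Over all genes, 0.986% were called lower in the paclitaxel-resistant line and 0.978% higher. AOX1 was lower in the paclitaxel-resistant line by a log2 difference of -2.19 (adjusted p = 0.00119). SMS differed by -0.75 (adjusted p = 0.0302) and PAPSS2 by -0.77 (adjusted p = 0.0289), and both lost this call when any 1 of the 6 resistant arrays was left out, with adjusted p up to 0.137 and 0.111 over all alternatives. MTHFD1 differed by -0.69 (adjusted p = 0.0453, up to 0.183 over the alternatives). Groups of 3 arrays were not tested for single arrays that stand apart.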

How the results depend on the processing

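The 4 genes stayed lower in both lines under every alternative run, and none was called between the lines (adjusted p 0.729 to 0.997 for ADIRF, 0.564 to 0.966 for RGCC, 0.336 to 0.932 for ZSCAN18 and 0.180 to 0.757 for NNMT). ZSCAN18 ranged from -4.69 to -4.19 and from -4.48 to -3.84 in the docetaxel- and paclitaxel-resistant lines. With an offset of 1 the differences were -6.91 and -6.78 for ADIRF, -5.97 and -5.66 for RGCC and -4.13 and -4.88 for NNMT; with 64 they were -5.68 and -5.63, -3.84 and -3.77, and -2.87 and -3.10. ADIRF and RGCC have no value without _x_at and _s_at probe sets, where HLA-DRB6 turned to 0.0034 in the paclitaxel-resistant line. Genes called numbered 2510, 2579 and 235 between lines. Without _x_at and _s_at probe sets they were 1431, 1495 and 110, and over all probe sets 3922, 4128 and 356. Between lines they were 78 with an offset of 1, 392 with 64, 143 without normalization and 139 with the replicate block. Without normalization 64.5% of calls were higher in the docetaxel-resistant line and 37.1% between lines, against 51.3% and 49.8%. List genes lower in the docetaxel-resistant line were 15 without normalization and 12 without _x_at and _s_at probe sets, where 11 were lower in the paclitaxel-resistant line. Between lines, 1 list gene was lower with an offset of 1, without normalization and with median scaling; 1 was higher with an offset of 64, 2 with the mean of probe sets, and 3 with median scaling, with a trended spread, with the filter and with 2 groups only. Leaving out 1 array gave 1643 (docetaxel-resistant replicate 3) to 2582 genes in the docetaxel-resistant line and 78 (docetaxel-resistant replicate 2) to 280 between lines, and 15 to 29, 12 to 23, 1 to 4 lower and 0 to 3 higher list genes in the respective comparisons. Whether replicate numbers pair the samples was not settled. Deviations of the same number correlated from -0.45 to 0.34, and no correlation between different numbers was computed. With the replicate block NNMT had an adjusted p of 0.304 between lines and no call of the 4 genes changed. The block ended the calls of ZNF165 and ZNF202 in the docetaxel-resistant line. It also ended those of GADD45A, NAA16, ZNF544 and CIDEC in the paclitaxel-resistant line and of PAPSS2 and MTHFD1 between lines (adjusted p 0.0513 to 0.0740 over all of these). Cause of these shifts was not tested.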

Other observations

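Other list genes, named after their values were seen, included CD46, a second membrane inhibitor of complement, which rose by 1.38 ± 0.36 and 1.59 ± 0.36 (limma adjusted p = 0.0174 and 0.00811) in the docetaxel- and paclitaxel-resistant lines. The CD46 call in the docetaxel-resistant line was lost without sensitive replicate 2 or 3 or docetaxel-resistant replicate 3 (adjusted p up to 0.0733). NMNAT2, an enzyme that makes NAD, rose by 0.81 ± 0.15 and 0.59 ± 0.15 (adjusted p = 0.0028 and 0.0153; up to 0.0521 in the paclitaxel-resistant line without sensitive replicate 1 or paclitaxel-resistant replicate 2), and NADSYN1, the NAD synthetase, fell by 0.76 ± 0.15 and 0.72 ± 0.15 (adjusted p = 0.00402 and 0.00519; -0.47 and -0.45 with an offset of 64). PLIN2, a lipid droplet coat protein, fell in the docetaxel-resistant line by 0.96 ± 0.17 (adjusted p = 0.00206; -0.50 with its probe sets averaged), and PNPLA2, the lipase of stored fat, rose in the paclitaxel-resistant line by 1.01 ± 0.20 (adjusted p = 0.00424). Neither differed between the lines at the threshold (adjusted p = 0.0749 and 0.0701). Of 20 alternatives, 5 called PLIN2 between the lines and 4 called PNPLA2 (adjusted p down to 0.0351 and 0.0369).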
